A study of Mus musculus with 2 samples.

Results

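The mitochondrial ribosomal protein genes were taken as every gene whose symbol consists of Mrpl or Mrps, a number and at most 1 further letter, with at least 20 unique molecular identifiers (UMIs) over both libraries. All 78 genes with such a name passed, of 32286 genes in the table. Their UMIs over both libraries ran from 83 for Mrpl49 through a median of 353.5 to 1866 for Mrpl18. By published membership of the mitoribosome, 26 code for small-subunit proteins and 51 for large-subunit proteins, among them Mrps18a and Mrps30 despite their names. Mrps36 stands alone, because its product is a component of the 2-oxoglutarate dehydrogenase complex.

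The series measured RNA in single nuclei of regenerating mouse liver, with 1 wild-type and 1 Cox10-/- library, each from 7000 loaded nuclei. Mice of both libraries carried a floxed Cox10 allele and had been given AAV8-GFP or AAV8-Cre by retroorbital injection 4 weeks before removal of 70% of the liver. AAV8 is an adeno-associated virus that mainly infects hepatocytes, so recombination was directed to those cells, and the labels do not state which animal got which virus. Livers were dissected 4 days after surgery by the treatment protocol but 4 weeks after it by the sample characteristics, and neither age nor sex nor the number of animals per library is stated. With 1 library per genotype there was no replicate and no test of genotype. Every interval below is an exact 95% interval that covers counting error only.

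Mitochondria have their own ribosome, which translates the few inner-membrane proteins encoded by mitochondrial DNA. All of its proteins are made from nuclear genes in the cytosol and imported, whereas its RNAs come from mitochondrial DNA. Cox10 makes heme O, the precursor of the heme A that cytochrome c oxidase needs, and the genes described here code for the machine that makes the catalytic core subunits of that same enzyme.

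The promoters of the members share letters near their starts more often than those of other genes, and 3 are printed to show what those letters look like. RefSeq promoter windows on GRCm38.p6 were found for 69 of the 78 members, and both strands were searched for motifs of 3 factors known from promoters of mitochondrial genes. The NRF1 motif, with any base allowed at its centre, was in 13 member promoters (18.8%) and for 5.19% of all 27025 genes, and its strict palindrome in 4.35% against 1.07%. The ETS motif CCGGAAG, bound by factors such as GABP, was in 26 (37.7%) against 9.93%, and CCGGAAGT, which contains it, in 17.4% against 4.31%. The YY1 motif AAGATGG was in 13 (18.8%) against 7.28%, and its longer form, which contains it, in 7.25% against 0.995%. These shares describe letters and not binding. The 3 stretches of 150 bases below were chosen as examples of a promoter with 2 NRF1 motifs, of one with a single NRF1 motif in a gene that the results turn on, and of one with both an ETS and a YY1 motif. All are the plus strand of GRCm38.p6, with motif letters in capitals; both NRF1 motifs of Mrpl45 and the ETS motif of Mrpl52 lie on the minus strand, so their reverse complements are seen here (CTTCCGG for the latter).
Mrpl45 (chr11:97315566-97315715): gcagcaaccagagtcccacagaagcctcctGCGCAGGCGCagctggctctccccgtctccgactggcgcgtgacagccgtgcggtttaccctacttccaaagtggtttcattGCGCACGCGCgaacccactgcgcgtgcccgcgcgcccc
Mrpl12 (chr11:120484487-120484636): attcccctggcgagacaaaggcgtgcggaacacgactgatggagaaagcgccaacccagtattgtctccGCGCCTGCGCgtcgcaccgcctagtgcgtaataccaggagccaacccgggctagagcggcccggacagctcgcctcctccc
Mrpl52 (chr14:54426759-54426908): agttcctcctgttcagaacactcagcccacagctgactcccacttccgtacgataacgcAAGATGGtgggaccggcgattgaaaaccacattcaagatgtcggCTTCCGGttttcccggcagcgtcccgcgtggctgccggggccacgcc

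In the genome the members are scattered over 17 chromosomes. All 78 were matched to the GENCODE vM21 annotation of the mm10 assembly. Their gene spans, introns included, ran from 0.789 kb for Mrpl34 through a median of 7.90 kb to 122 kb for Mrps28 (chr3:8802146-8923918, minus strand). Another annotated gene overlaps 6 members on the same strand and 32 on the opposite strand. Whether strand was used in counting is not given in the sources used here, so reads of those 32 and of their antisense neighbours cannot be told apart with certainty. The best counted member, Mrpl18 (chr17:12911349-12916345, minus strand), is among them, with Tcp1 on the other strand.

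There were 5448 wild-type nuclei with 17703804 UMIs and 5167 Cox10-/- nuclei with 14476400 UMIs, and the libraries had 7 cell barcodes in common. Nuclei with at most 10% mitochondrially encoded UMIs, the set used unless stated, were 1542 wild-type (28.3%) and 3128 Cox10-/- (60.5%). All 14 hepatocyte markers had UMIs in every hepatocyte-like sum. Hepatocyte-like nuclei of the libraries hardly shared a cluster. Deeper wild-type ones lay in clusters of 661, 534 and 281 nuclei led by Grm8, Sult2a8 and Cyp2c38. Deeper Cox10-/- ones lay mainly in a cluster led by Cyp2b10 (424 nuclei) and one led by Meg3 (226), and shallower Cox10-/- ones in one led by Saa1 (441). Genotype, animal and library therefore cannot be told apart in any comparison between the genotypes. Cox10 itself stood at 35.7 CPM, a gene's UMIs per 1000000 UMIs of the summed nuclei (31.4 to 40.4), in deeper wild-type and 48.9 (41.9 to 56.7) in deeper Cox10-/- hepatocyte-like nuclei. The labels do not say which exons are deleted, so these 3′ counts do not check the genotype.

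Hepatocyte-like nuclei with at least 2000 UMIs, called deeper here, carried more mitoribosomal protein RNA in the Cox10-/- library, by a modest margin. The 78 genes summed to 982 CPM (959 to 1005) over 1482 wild-type nuclei and to 1203 CPM (1167 to 1240) over 674 Cox10-/- nuclei, a ratio of 1.23 (1.18 to 1.27). The median member lay 0.26 above 0 on the log2 ratio scale, where the median of all genes tested was -0.01, and 53 of the 77 members tested had a ratio above 1. Yet few members moved far. A gene was called higher or lower when its ratio was at least 1.5-fold and its counting interval excluded 1, which 11 members met as higher (14.3%) against 12.4% of all genes, and 0 as lower against 9.39%. The count of higher members is thus near the background. By fold alone, without the interval, 17 members were at least 1.5-fold higher and 0 lower. The share of all genes beyond that fold alone was not computed, so these counts cannot be set against a background. Mrpl49 had 13 and 6 UMIs and was not tested.

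Both subunits lay above 1 in sum. Small-subunit genes summed to 378 CPM in wild-type and 426 CPM in Cox10-/- nuclei, a ratio of 1.13 (1.06 to 1.20), and large-subunit genes to 596 and 770 CPM, a ratio of 1.29 (1.23 to 1.35). Without Mrpl18 the large subunit stood at 540 and 638 CPM, a ratio of 1.18 (1.12 to 1.24) whose interval overlaps that of the small subunit, and the whole family at 1.16 (1.11 to 1.20). Among the 30 large-subunit genes listed as having bacterial counterparts 5 were called higher, with a median log2 ratio of 0.33. Of the 20 tested large-subunit genes listed as specific to mitochondria 2 were, with a median of 0.23. Of the 16 small-subunit genes listed as having bacterial counterparts 2 were called higher, with a median of 0.20. Of the 10 listed as specific to mitochondria 2 were, with a median of 0.05. The mitochondria-specific lists include Mrps18a and Mrps18b, although both are paralogs of bacterial S18.

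**Figure D1:**
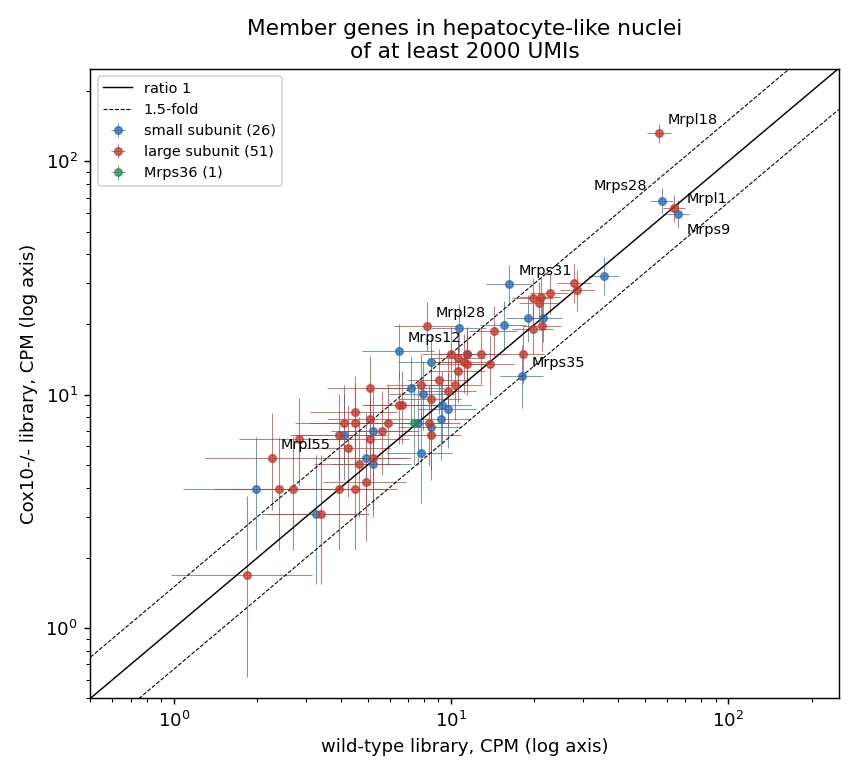
CPM of each mitochondrial ribosomal protein gene in deeper wild-type (x axis) and deeper Cox10-/- (y axis) hepatocyte-like nuclei, both axes logarithmic; bars are exact 95% counting intervals, and lines mark equal levels and 1.5-fold differences. Mrpl18 stands apart at 56.3 and 132 CPM, while Mrpl1 and Mrps9, of similar wild-type level, lie near the line of equal levels.

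Mrpl18 sits in the central protuberance of the large subunit. It had 399 UMIs or 56.3 CPM (50.9 to 62.1) in deeper wild-type nuclei and 469 UMIs or 132 CPM (120 to 144) in deeper Cox10-/- nuclei, a ratio of 2.34 (2.04 to 2.68). The 2 intervals lie far apart, and the gene held more UMIs in the Cox10-/- sum although that sum is the smaller one. Among other large-subunit genes of bacterial ancestry, Mrpl28 (chr17:26123500-26126613, plus strand) went from 8.18 CPM (6.21 to 10.6) to 19.7 CPM (15.3 to 24.8), a ratio of 2.40 (1.67 to 3.46). Mrpl36, a very small protein of the subunit, had 20 and 23 UMIs, that is 2.82 and 6.46 CPM, with a ratio of 2.29 (1.20 to 4.39). Mrpl55 had 16 and 19 UMIs and a ratio of 2.36 (1.15 to 4.92). For Mrpl36 and Mrpl55 the fold is large but the counts leave it loosely fixed, and both fell short of the call when all deposited nuclei entered, at ratios of 1.29 and 1.43. In that wider set 10 of 78 members were called higher against 12.8% of all genes and 0 lower against 8.96%. Mrpl23, with 4.52 and 8.43 CPM, completes this group at 1.87 (1.10 to 3.17).

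Of the large-subunit genes listed as specific to mitochondria, Mrpl54 stood at 5.08 CPM (3.56 to 7.03) in wild-type and 10.7 CPM (7.55 to 14.7) in Cox10-/- nuclei, a ratio of 2.10 (1.30 to 3.41). Mrpl57 stood at 4.09 and 7.59 CPM, a ratio of 1.85 (1.06 to 3.24). The intervals of the levels do not overlap for Mrpl54 and do for Mrpl57. Several proteins with known tasks showed little difference. Mrpl45, which sits where the ribosome meets the inner membrane, had 73 and 39 UMIs and a ratio of 1.06 (0.702 to 1.59). Mrpl44, with a fold of the ribonuclease III family, had 3.39 and 3.09 CPM and a ratio of 0.912 (0.403 to 1.93). Mrpl58, a peptidyl-tRNA hydrolase that also rescues stalled ribosomes, had 4.94 and 4.21 CPM and a ratio of 0.853 (0.433 to 1.60). With at most 35 UMIs in a sum, the last pair could hide a difference of 1.5-fold in either direction.

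The stalk that recruits translation factors lay between. Mrpl12, present in several copies (chr11:120484613-120489065, plus strand), had 19.8 CPM (16.6 to 23.3) and 25.8 CPM (20.8 to 31.7), a ratio of 1.31 (0.995 to 1.71), and Mrpl11, at the stalk base, 5.08 and 6.46 CPM, a ratio of 1.27 (0.720 to 2.21). Mrpl1, of the other stalk, had 63.9 CPM (58.2 to 70.1) and 62.9 CPM (55.0 to 71.7), a ratio of 0.984 (0.835 to 1.16). Mrpl3, close to the peptidyl transferase centre, had 28.5 and 28.1 CPM and a ratio of 0.986 (0.768 to 1.26). For Mrpl1 and Mrpl3 the counting intervals of the ratio leave no room for a 1.5-fold difference in these nuclei. Mrpl33 and Mrpl42 lay slightly lower, at 0.818 (0.583 to 1.13) and 0.923 (0.685 to 1.23).

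In the small subunit the decoding-centre protein Mrps12 (chr7:28739641-28741820, minus strand) stood out, with 6.49 CPM (4.75 to 8.66) in wild-type and 15.5 CPM (11.6 to 20.1) in Cox10-/- nuclei, a ratio of 2.38 (1.58 to 3.60). Mrps7, a protein of the subunit's head, had 10.7 CPM (8.45 to 13.4) and 19.4 CPM (15.1 to 24.5), a ratio of 1.81 (1.29 to 2.54). Mrps31, found only in mitochondria, had 16.2 CPM (13.4 to 19.5) and 29.8 CPM (24.4 to 36.0), a ratio of 1.84 (1.40 to 2.41). None of these 3 pairs of intervals overlaps, although Mrps7 reached a ratio of only 1.43 (1.09 to 1.86) with all deposited nuclei. The 3 paralogs of bacterial S18 differed from each other. Mrps18b had 8.47 and 13.8 CPM, a ratio of 1.63 (1.09 to 2.41), Mrps18c 9.31 and 8.99 CPM, a ratio of 0.965 (0.612 to 1.49), and the large-subunit paralog Mrps18a 13.8 and 13.5 CPM, a ratio of 0.975 (0.676 to 1.39). The call for Mrps18b is fragile, since its log2 ratio was -0.11 in nuclei with 5 to 10% mitochondrially encoded UMIs.

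At the low end, Mrps35 (chr6:147042764-147073991, plus strand) went from 18.1 CPM (15.1 to 21.5) to 12.1 CPM (8.74 to 16.3). That is a ratio of 0.669 (0.462 to 0.952), just short of the fold for a call, which it met with a depth boundary of 3000 UMIs. Mrps26 had 55 and 20 UMIs and a ratio of 0.724 (0.411 to 1.23). Mrps9, near the tRNA sites, had 65.9 CPM (60.1 to 72.2) and 59.6 CPM (51.8 to 68.1), a ratio of 0.904 (0.765 to 1.07). Mrps27, a pentatricopeptide repeat protein, had 35.6 and 32.3 CPM and a ratio of 0.909 (0.722 to 1.14), and Mrps5 21.4 CPM in both sums, a ratio of 0.995 (0.746 to 1.32). Mrps36, which is not ribosomal, had 7.34 and 7.59 CPM, a ratio of 1.03 (0.624 to 1.68). So Mrps9, Mrps27 and Mrps5, like Mrpl1, were at similar levels in the same nuclei in which Mrps12 and Mrps31 differed.

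Several measures moved with this comparison. The median share of mitochondrially encoded UMIs was 7.83% in wild-type nuclei and 3.30% in Cox10-/- nuclei, and summed cytosolic ribosomal protein RNA was 1938 and 3533 CPM. Markers of other cells were higher in the Cox10-/- sum: stellate markers summed to 33.7 and 164 CPM (9 and 10 of 10 with a UMI), myeloid markers to 6.63 and 60.7 CPM (11 of 12 in both, Siglech at 0), and endothelial markers to 29.8 and 51.7 CPM (11 of 11 in both). Cholangiocyte markers summed to 53.8 and 159 CPM (4 and 6 of 8, Krt7 and Cftr at 0 in both) and lymphoid ones to 3.95 and 5.06 CPM (5 and 4 of 12, Cd3e at 0 in both). Their part in the family's difference was not tested. Within nuclei of 5 to 10% mitochondrially encoded UMIs the family stood at 989 CPM over 1384 wild-type and 1318 CPM over 165 Cox10-/- nuclei, a ratio of 1.35 (1.25 to 1.45). Below 5% it stood at 928 CPM (858 to 1002) over 90 wild-type and 1176 CPM (1137 to 1216) over 505 Cox10-/- nuclei, and at 10 to 15%, above the limit, at 1011 CPM (985 to 1038) over 1834 and 1317 CPM (1174 to 1472) over 60. At 15 to 20% the values were 1002 CPM (963 to 1042) over 925 and 1120 CPM (1009 to 1241) over 71, with intervals that overlap.

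Other genes of mitochondrial gene expression did not share one direction, and in most of these lists the share called was near that of all genes, 12.4% higher and 9.39% lower. The 5 mitoribosomal proteins with other names were an exception, since most of them were called higher. Aurkaip1 had a ratio of 2.90 (1.68 to 5.10), Gadd45gip1 1.71 (1.03 to 2.85) and Chchd1 1.65 (1.05 to 2.58). The small-subunit GTPase Dap3, at 0.866 (0.684 to 1.09), and Ptcd3, at 0.955 (0.799 to 1.14), were not called. Of 17 translation factors 2 were called higher (11.8%), with a list median log2 ratio of 0.13, among them Taco1, a translational activator for cytochrome c oxidase subunit 1, from 50.9 to 79.2 CPM at 1.56 (1.33 to 1.82). Of 24 assembly factors 2 were higher (8.33%), Rbfa at 1.67 (1.19 to 2.34) and C1qbp at 1.62 (1.06 to 2.46), with a median of -0.09. Of 16 mitochondrial aminoacyl-tRNA synthetases 0 were called, with a median of -0.02. Among 18 genes that copy and transcribe mitochondrial DNA, 2 were lower (11.1%) and 0 higher, with a median of -0.13. These were the exonuclease Mgme1, 3.23-fold lower (1.45 to 8.49) on 45 and 7 UMIs, and the RNA polymerase Polrmt, 1.64-fold lower (1.01 to 2.78). Tfam, which packages mitochondrial DNA, had a ratio of 0.940 (0.708 to 1.24).

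In these sums, counts of mitochondrially encoded messenger RNAs and of nuclear genes for their partner subunits went opposite ways. All 13 mitochondrially encoded messenger RNAs were called lower, from 72656 CPM in sum to 33005 CPM. The mitochondrial share is also what nuclei were filtered on, and it varied with depth. Over all deposited wild-type hepatocyte-like nuclei this share went from 17.1% at 1000 to under 1500 UMIs to 6.25% at 7000 and more. The libraries were made from nuclei, so these counts do not show how much mitochondrially encoded RNA the hepatocytes held. Whether its expression differed was not tested. Of 36 nuclear genes for oxidative phosphorylation subunits 15 were called higher and 0 lower, with a median log2 ratio of 0.50 and a summed ratio of 1.45 (1.41 to 1.49), led by Atp5g3 at 2.11, Ndufa4 at 2.04 and Cox7c at 2.02. Of 73 cytosolic ribosomal protein genes tested 61 were higher and 0 lower, with a median of 0.86 and a summed ratio of 1.82 (1.78 to 1.87). The mitoribosomal median of 0.26 was the lowest of these 3 nuclear families. Among 9 nuclear regulators of mitochondrial genes, Ppargc1a, the coactivator PGC-1alpha, went from 369 to 742 CPM at 2.01 (1.91 to 2.13) and Pprc1 stood at 1.55 (1.10 to 2.16), whereas Nrf1 was at 105 CPM in both, a ratio of 1.0 (0.882 to 1.13). Whether these differences in level are linked to one another was not tested.

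**Figure D2:**
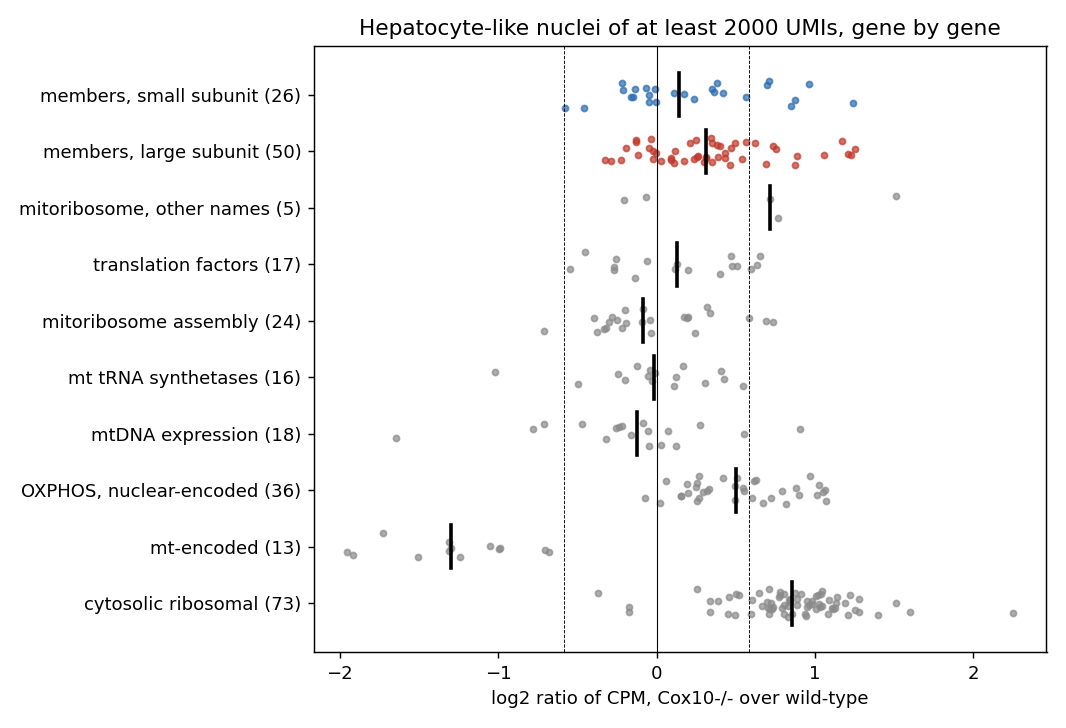
Log2 ratio of Cox10-/- over wild-type CPM in deeper hepatocyte-like nuclei for each gene tested, 1 point a gene, by gene list; black bars are list medians and dashed lines 1.5-fold. The mitoribosomal points lie around a median of 0.26, below the nuclear subunits of oxidative phosphorylation (0.50) and cytosolic ribosomal proteins (0.86), and the mitochondrially encoded genes lie at -1.30.

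Median ratios in deeper nuclei were alike with and without the NRF1 and ETS motifs, and lower with the YY1 motif than without it, a difference that was not tested. The median log2 ratio was 0.25 for the 13 tested members with the NRF1 motif and 0.25 for the 55 without. With the ETS motif the median was 0.26 over 26 members, against 0.25 over the other 42. With the YY1 motif the median was 0.04 over 12 members, 3 of them higher, against 0.31 over 56, 7 of them higher. Mrpl45 and Mrpl12, whose NRF1 motifs are printed above, had ratios of 1.06 and 1.31 and Mrpl52 1.49 (1.02 to 2.15). These are descriptions of letters in a window and say nothing about whether a factor was bound.

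Nuclei under 2000 UMIs differed more between the libraries. At most 10% mitochondrially encoded UMIs left only 20 wild-type nuclei, with 30 mitoribosomal UMIs, 888 CPM (599 to 1267), against 495 Cox10-/- nuclei with 1182 UMIs, 1943 CPM (1834 to 2057), a ratio of 2.19 (1.52 to 3.26). Only 20 members could be tested there. Of these 0 were called higher against 6.51% of all genes, and 1, Mrpl1, lower against 11.9%, on 6 and 23 UMIs. A gene without a wild-type UMI could still have stood at 88.8 CPM by the 3-count limit, or 109 CPM by its exact interval. Because the limit left so few wild-type nuclei, single members are described over all deposited nuclei instead.

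Over all deposited nuclei the shallower wild-type sum held 964 nuclei and 1103 CPM (1053 to 1156), and the Cox10-/- sum 953 nuclei and 2010 CPM (1930 to 2092), a ratio of 1.82 (1.71 to 1.94). Of 70 members tested, 37 were called higher (52.9%) against 20.8% of all genes, and 2 lower (2.86%) against 26.2%. The median log2 ratio was 0.97 where that of all genes was -0.22. Among the 1610 genes tested that span under 10 kb, the median was also 0.97. The large subunit lay further out than the small one, at 1.96 (1.82 to 2.12) with 27 of 46 higher. Without Mrpl18 its ratio was 2.14 (1.98 to 2.31). The small subunit stood at 1.54 (1.38 to 1.73) with 10 of 23 higher, and its sum was not recomputed without low members such as Mrps27. The 8 members with too few UMIs were Mrpl19, Mrpl40, Mrpl44, Mrpl46, Mrpl49, Mrps2, Mrps6 and Mrps11.

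The members with the most secure differences were spread over the ribosome. Mrpl54 had 6 UMIs or 3.74 CPM (1.37 to 8.14) in shallower wild-type and 45 UMIs or 37.9 CPM (27.6 to 50.7) in shallower Cox10-/- nuclei, a ratio of 10.1 (4.30 to 29.0). The stalk protein Mrpl12 had 26.2 CPM (18.9 to 35.4) and 95.9 CPM (79.1 to 115), a ratio of 3.66 (2.55 to 5.35). Mrpl14, which bridges the subunits, had 24.9 CPM (17.8 to 34.0) and 89.2 CPM (73.0 to 108), a ratio of 3.58 (2.46 to 5.28). For each of these the lowest Cox10-/- bound lies well above the highest wild-type bound. Mrpl17 followed at 5.25 (2.47 to 12.4), and the decoding protein Mrps12 at 4.19 (2.46 to 7.44), with 11.8 and 49.6 CPM. Mrpl38 and Mrpl24 showed smaller differences, at 2.13 (1.33 to 3.46) and 1.96 (1.35 to 2.85).

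Mrpl18 went the other way here. It had 134 UMIs or 83.5 CPM (70.0 to 98.9) in shallower wild-type and 61 UMIs or 51.3 CPM (39.3 to 65.9) in shallower Cox10-/- nuclei, 1.63-fold lower (1.19 to 2.24). The member with the best counted excess in deeper Cox10-/- nuclei was therefore 1 of the 2 called lower in shallower ones. The other was Mrps27, with 29.3 and 16.0 CPM, 1.83-fold lower (1.06 to 3.31). Mrps28, Mrpl1 and Mrps9, well counted in deeper nuclei, had ratios of 0.741 (0.503 to 1.08), 0.735 (0.494 to 1.08) and 0.736 (0.493 to 1.09), below 1 but within counting error.

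The shallower sums also differed in other ways. The median mitochondrially encoded share was 16.4% in wild-type and 9.94% in Cox10-/- nuclei, and cytosolic ribosomal protein RNA stood at 3888 and 13568 CPM. Hepatocyte markers summed to 36821 and 71273 CPM, stellate markers to 30.5 and 364 CPM (6 and 9 of 10), myeloid markers to 18.1 and 214 CPM (9 and 12 of 12), and endothelial markers to 40.5 and 163 CPM (10 and 11 of 11). Cholangiocyte markers summed to 44.3 and 138 CPM (4 and 5 of 8, Krt19 and Krt7 at 0 in both) and lymphoid ones to 3.74 and 11.8 CPM (4 and 6 of 12, Cd3e at 0 in both). What share of the family's difference goes with them was not tested. Within nuclei of 10 to 15% mitochondrially encoded UMIs the family stood at 1128 CPM (1031 to 1231) over 253 wild-type and 2159 CPM (2031 to 2293) over 394 Cox10-/- nuclei. At 15 to 20%, where most of the wild-type nuclei lay, it stood at 1100 CPM (1040 to 1163) over 691 wild-type and 1684 CPM (1438 to 1960) over 72 Cox10-/- nuclei, a narrower gap. Of the companion lists, 33 of 36 nuclear oxidative phosphorylation genes and 72 of 73 cytosolic ribosomal protein genes were higher in the shallower Cox10-/- sum. Of 14 translation factors 2 were higher and 1 lower, and of 8 nuclear regulators 0 were higher and 4 lower. Among all genes in this comparison 20.8% were called higher and 26.2% lower.

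**Figure D3:**
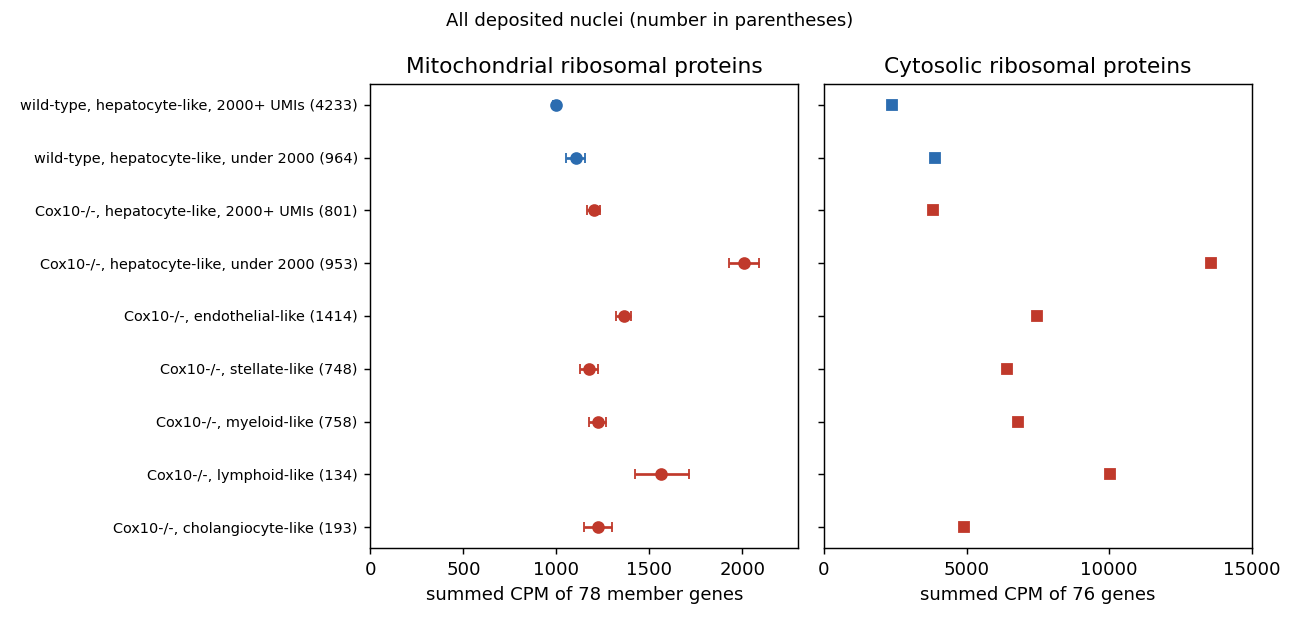
Summed CPM of the 78 mitochondrial ribosomal protein genes, with exact 95% counting intervals, and of cytosolic ribosomal protein genes in each class of all deposited nuclei of each library. Shallower Cox10-/- hepatocyte-like nuclei are highest on both measures among the hepatocyte-like sums, at 2010 and 13568 CPM.

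Within the Cox10-/- library itself the family was denser in shallower than in deeper hepatocyte-like nuclei, at 1943 against 1203 CPM, a ratio of 1.62 (1.51 to 1.72). Of 72 members tested 32 were higher in the shallower nuclei against 16.5% of all genes, and 4 lower against 26.4%. The large subunit, at 1.80 (1.66 to 1.95) and 2.08 (1.92 to 2.26) without Mrpl18, exceeded the small one, at 1.29 (1.15 to 1.46). The small-subunit sum was not recomputed without its own low members. Of these, Mrps28 and Mrps9 alone held 241 and 212 UMIs in deeper nuclei, so the contrast between subunits may rest on a few genes. The cytosolic ribosomal proteins lay much further apart, at 3.81 (3.70 to 3.91). In the wild-type library, over all deposited nuclei, the ratio was 1.11 (1.05 to 1.16), with 11 of 78 members higher against 3.44% of all genes and 1 lower against 1.84%.

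Single members took opposite paths between the Cox10-/- depth classes. Mrpl30, a large-subunit protein, went from 13.8 CPM (10.2 to 18.2) in deeper to 64.1 CPM (45.6 to 87.6) in shallower nuclei, a ratio of 4.66 (2.98 to 7.24). Mrpl14 went from 24.7 to 92.1 CPM at 3.72 (2.61 to 5.26) and Mrps12 from 15.5 to 57.5 CPM at 3.72 (2.37 to 5.79). Against this, Mrpl18 went from 132 CPM (120 to 144) to 55.9 CPM (38.7 to 78.1), 2.36-fold lower (1.66 to 3.45). Mrps28 was 2.06-fold lower (1.30 to 3.43), Mrps9 1.81-fold lower (1.14 to 3.03) and Mrpl1 1.66-fold lower (1.08 to 2.68). In the wild-type library Mrpl18 was, in contrast, 1.37 times higher in the shallower nuclei (1.14 to 1.65), short of a call, and Mrps31 was the member called lower, at 15.5 and 8.73 CPM.

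Along depth the family's level in the Cox10-/- library was much the same under 2000 UMIs and fell above that. In the wild-type library it fell less. Over all deposited hepatocyte-like nuclei the family stood at 1993 CPM (1900 to 2088) in Cox10-/- nuclei of 1000 to under 1500 UMIs and at 2062 (1889 to 2247) in those of 1500 to under 2000. It then stood at 1606 (1494 to 1724) for 2000 to under 3000 UMIs, 1270 (1192 to 1350) for 3000 to under 4500, 1175 (1116 to 1237) for 4500 to under 7000 and 1064 (1013 to 1116) for 7000 and more. The wild-type bins from 1000 UMIs up ran from 1107 CPM (1051 to 1166) at 1500 to under 2000 UMIs down to 943 (893 to 995) at 7000 and more. In the deepest bin, with 166 wild-type and 169 Cox10-/- nuclei, the genotypes thus differed by 943 against 1064 CPM, with intervals that do not overlap, and at 1500 to under 2000 UMIs by 1107 against 2062 CPM. The fixed boundary at 2000 UMIs also divides clusters. With at most 10% mitochondrially encoded UMIs, 441 of 495 shallower Cox10-/- nuclei lay in the cluster led by Saa1, against 10 of 674 deeper ones. The parts of depth and cluster were not separated. The share of mitochondrially encoded UMIs went from 10.5% to 3.92% over the Cox10-/- bins from 1000 UMIs up, and its part was not tested.

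**Figure D4:**
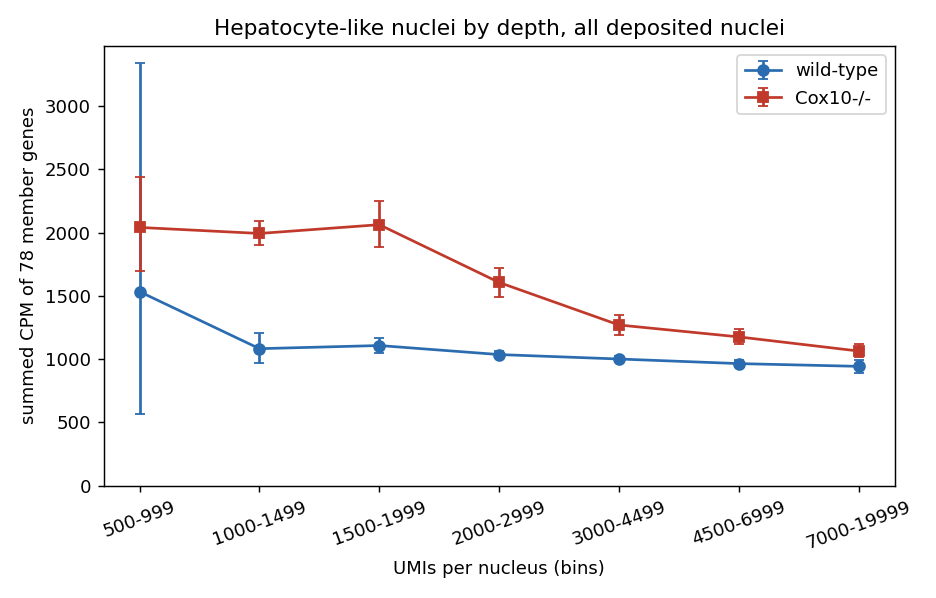
Summed CPM of the 78 genes, with exact 95% counting intervals, in hepatocyte-like nuclei binned by UMIs per nucleus, for each library over all deposited nuclei. From 1000 UMIs up the Cox10-/- points lie above the wild-type points in every bin, at 2062 against 1107 CPM for 1500 to under 2000 UMIs and 1064 against 943 CPM in the deepest bin.

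Gene span went with these differences. Between deeper Cox10-/- and wild-type nuclei the correlation of log2 ratio with log span across 77 members was -0.54 (Pearson) and -0.60 (Spearman). The 52 members spanning under 10 kb had a median log2 ratio of 0.38, with 10 called higher, and the 25 longer ones a median of -0.01, with 1 called higher. Between shallower and deeper Cox10-/- nuclei the correlation was -0.67 on both measures over 72 members, with medians of 1.43 for 47 short and 0.11 for 25 long genes. All genes showed the same order, with medians of 0.78 under 10 kb and -0.50 above in the latter comparison, and 0.23 and -0.05 in the former. Between shallower Cox10-/- and wild-type nuclei, over all deposited nuclei, the correlation was -0.58 on both measures over 70 members. There the medians were 1.28 for 46 short and 0.51 for 24 long members, and 0.97 and -0.36 among all genes. Between the depth classes of the wild-type library, over all deposited nuclei, the correlation was -0.47 (Pearson) over 78 members. Genes share libraries and depth and are not replicates, so these correlations are descriptions. Mrpl18, at 5.00 kb, lay low for its span between the Cox10-/- depth classes, and Mrps28 and Mrps27, at 122 and 70.8 kb, lay low with the long genes.

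**Figure D5:**
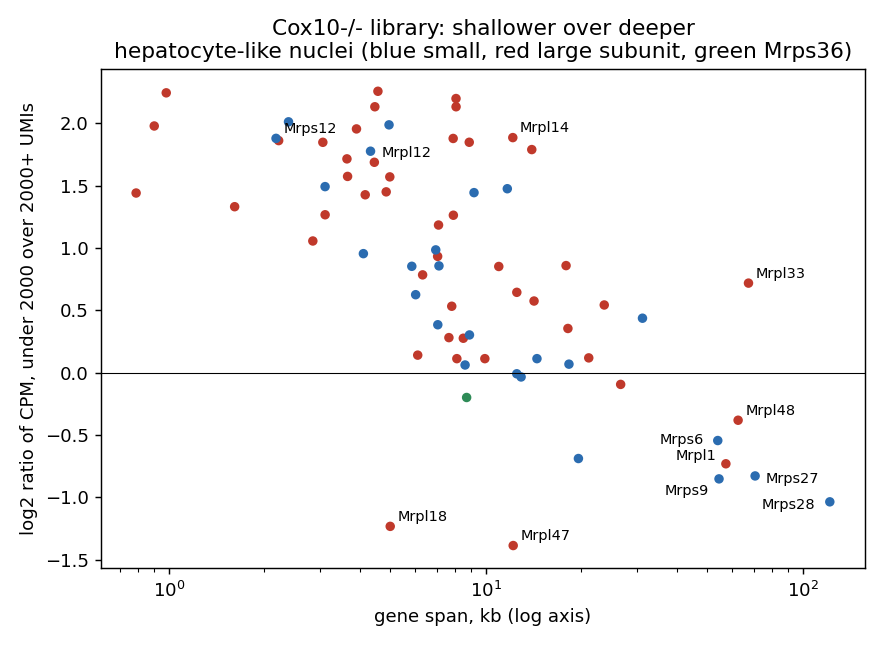
Log2 ratio of shallower over deeper CPM in Cox10-/- hepatocyte-like nuclei against gene span in kb (logarithmic axis), 1 point for each of 72 tested members. Short genes lie mostly above 0 and long genes around or below it; Mrpl18 lies low among the short genes.

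In the Cox10-/- library 5 classes had at least 50 nuclei. From high to low the family's sums in them were 1943 CPM (1834 to 2057) in shallower hepatocyte-like, 1369 (1318 to 1422) in 831 endothelial-like, 1267 (1188 to 1350) in 268 myeloid-like, 1203 (1167 to 1240) in deeper hepatocyte-like and 1161 (1111 to 1213) in 617 stellate-like nuclei. The intervals of neighbours overlap from the endothelial-like class down to the stellate-like one, and of these 5 only the shallower hepatocyte-like sum is clear of the next. Cytosolic ribosomal protein RNA stood at 7024, 6510 and 6135 CPM in the endothelial-, myeloid- and stellate-like sums against 3533 CPM in deeper hepatocyte-like nuclei. All 14 hepatocyte markers were also detected, with at least 5 UMIs, in every cluster of these 3 classes. In the clusters led by Cyp2b10 and Meg3 these markers exceeded the nuclei named as other classes by a mean log2 of only 0.96 and 0.79. How far hepatocyte RNA enters the sums of other classes was not tested. Median depth was 2262, 2575 and 2672 UMIs in these 3 classes against 4541 in deeper hepatocyte-like nuclei, and restricted to nuclei of at least 2000 UMIs their sums were 1320.1, 1213 and 1130.4 CPM. Lymphoid-like nuclei, only 41 in the Cox10-/- library, stood at 1756 CPM (1503 to 2040), an interval that overlaps that of the shallower hepatocyte-like nuclei. Over all deposited nuclei 134 lymphoid-like nuclei stood at 1563 CPM (1422 to 1714), above the endothelial-like sum of 1361 CPM (1321 to 1403), and 193 cholangiocyte-like nuclei at 1222 CPM (1148 to 1300). Cytosolic ribosomal protein RNA stood at 10039 CPM in these lymphoid-like nuclei. The wild-type library had under 50 nuclei in every other named class, which was left out.

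Member by member, 51 of the 78 were highest in the shallower hepatocyte-like sum, 10 in the endothelial-like, 9 in the myeloid-like, 4 in the deeper hepatocyte-like and 4 in the stellate-like. The same ranking of all genes was not computed, so these counts cannot be set against a background. They include members with too few UMIs for a call, such as Mrpl49, with 4 UMIs in shallower and 6 in deeper hepatocyte-like nuclei. The shallower hepatocyte-like sum is also the smallest of these sums, at 608320 UMIs, so low counts fix levels least closely there. Against deeper hepatocyte-like nuclei, 25 of 77 members were higher in endothelial-like nuclei (32.5%) against 30.8% of all genes, and 3 lower (3.90%) against 23.6%. In stellate-like nuclei 8 of 76 were higher against 25% and 7 lower against 26.4%, and in myeloid-like nuclei 6 of 72 were higher against 27.7% and 1 lower against 21%. Many members had low counts in these sums, and whether members and other genes differ in these shares was not tested.

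Mrpl18 was called lower in all 3 of these classes. It stood at 14.1 CPM (9.38 to 20.4) in endothelial-like, 13.4 CPM (8.47 to 20.1) in stellate-like and 16.0 CPM (8.25 to 27.9) in myeloid-like nuclei, against 132 CPM in deeper hepatocyte-like nuclei. That is 9.33-fold (6.37 to 14.2), 9.86-fold (6.49 to 15.7) and 8.25-fold (4.68 to 16.1) lower, and the 3 other classes do not differ beyond their intervals. Mrps31 was 3.42-fold lower (1.98 to 6.32) in stellate-like and 1.74-fold lower (1.17 to 2.64) in endothelial-like nuclei, and Mrps5 1.76-fold lower (1.10 to 2.92) in the endothelial-like ones. In the other direction Mrpl33 had 37.8 CPM in stellate-like against 14.9 CPM in deeper hepatocyte-like nuclei, a ratio of 2.54 (1.74 to 3.72). Mrpl16, a core large-subunit protein, had 17.3 CPM in myeloid-like against 3.93 CPM in deeper hepatocyte-like nuclei, a ratio of 4.40 (1.90 to 10.1), and 2.95 (1.45 to 6.20) in endothelial-like ones. Wide ranges on few UMIs were seen for Mrps11, at 10.1 CPM in endothelial-like nuclei and with 0 UMIs in myeloid-like nuclei. The latter allows up to 3.99 CPM by the 3-count limit and 4.91 CPM by the exact interval. Mrpl57 had 1 UMI in myeloid-like nuclei and 17.7 CPM in endothelial-like ones, and Mrpl41 had 2.91 CPM in stellate-like and 32.9 CPM in shallower hepatocyte-like nuclei.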

How the data were processed

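RNA was measured in single nuclei of 2 libraries with a 10x 3′ kit. The deposited table holds raw counts, UMIs per gene and nucleus, with no normalization by the authors. Cell Ranger 7.0 and mm10 are named per the submitters' processing notes; how introns, strand and nuclei were handled was not stated in those sources. Every nucleus column was mapped to a library, leaving 0 unmapped. Kept nuclei had 500 UMIs or more, 300 genes or more and no more than 10% mitochondrially encoded UMIs. Scrublet, at an expected 5% per library, called 0 doublets in the wild-type library and 14 in the other, so it did not work, and only these 14 were removed. With scanpy 1.11.5 (Python 3.11.15), nuclei were scaled to 10000 UMIs, log-transformed and clustered by Leiden (leidenalg 0.10.2, resolution 1, seed 1) on 2000 variable genes, 30 principal components and 15 neighbours, without integration.

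Clusters were named from marker lists. For classes other than hepatocyte, markers of 1 class alone had to exceed other nuclei by 2 on the log2 scale, with 3 markers detected and the leading one 8-fold up. Hepatocyte-like clusters needed an excess above 0.2 and under 0.5 for other classes. These limits were chosen with the data in view, and names rebuilt this way may differ from the authors'. UMIs were summed per class and divided by the sum's total (CPM). A call was tried for genes with 20 UMIs or more in the 2 sums together; log2 ratios used a prior of 0.5 UMI. Intervals are exact Poisson for levels and conditional binomial for ratios, and the limit for a gene at 0 is 3 counts in the sum (scipy 1.17.1). Calls were tried on simulated Poisson counts, which hold counting error only. That trial has no variation between nuclei, animals or libraries and cannot show how calls fare under it. Genotypes were not tested, with 1 library each.

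Members and lists were chosen with earlier results of these data known. Named were the 8 highest and 8 lowest members in deeper nuclei and 5 and 5 in shallower ones by the interval end nearest to 1, the 5 of widest range over classes, 13 members by role, and up to 3 genes of each other list. Mrpl23, called but outside this rule, and members named as untested or as ends of a range were chosen after their values were seen. Alternatives covered scaling (edgeR 4.0.16, DESeq2 1.42.0), depth boundaries, mitochondrial limits, weighting, thinning to 500 UMIs, clustering, doublet scores, gene filters and the fold.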

Additional observations from a re-analysis of the deposited data

How the results depend on the processing

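Over 18 alternatives the family's ratio in deeper hepatocyte-like nuclei stayed between 1.16 and 1.35. Among these 18, the gene filters and the fold for a call could not change the ratio, by construction. The family's median log2 ratio stayed above 0 except when nuclei were thinned to 500 UMIs. Only 15 members could be tested then, and the median was -0.15. The fold for a call could not change the median either. The ratio was 1.18 with a total that leaves out mitochondrially encoded and cytosolic ribosomal genes and 1.29 as a mean over nuclei. In alternatives chosen after seeing the data it was 1.35 in nuclei of 5 to 10% mitochondrially encoded UMIs, 1.16 without Mrpl18 (1.18 for the large subunit alone) and 1.30 without the cluster led by Meg3 and Rian. The 11 higher members became 5 of 57 tested at most 5% mitochondrially encoded UMIs, 18 as a mean over nuclei, 1 after thinning and 6 at a fold of 2. The 0 lower became 1 with a boundary of 3000 UMIs, 1 with the reduced total (Mrps35 in both) and 1 in nuclei of 5 to 10%. At most 5%, Mrps12, Mrps7, Mrps31, Mrpl28, Mrpl54 and Mrps18b lost their calls, and Mrpl18 kept it in every setting tried. Of single named members, only Mrps18b turned, to -0.11 in nuclei of 5 to 10%. In shallower nuclei, where 20 wild-type nuclei limit everything, the ratio was 1.35 (0.810 to 2.43) after thinning. The higher count of 0 became 37 without a mitochondrial limit, 18 with a boundary of 3000 UMIs, 1 with TMM and 1 with DESeq2 factors, which move the median of all genes by 0.37 and 0.31. The lower count of 1 became 2 without a limit, and 0 with a boundary of 1500 UMIs, 0 after thinning and 0 with at least 50 UMIs per gene. The members' median there (4.63, or 5.00 with TMM and 5.84 with at least 50 UMIs on 2 members) depends on the prior and is not read. After thinning, the shallower over deeper Cox10-/- ratio was 1.5 and deeper Cox10-/- nuclei stood at 1356 CPM; endothelial-like nuclei stood at 1317 CPM at a resolution of 2. The cause of these shifts was not tested. At most 5%, the shallower comparison could give no value, for want of wild-type nuclei. No paired analysis was possible because each genotype had 1 library, and none could be left out.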
